A study of Mus musculus with 6 samples.

Results

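The citric acid cycle enzymes described here are 9 mouse genes, Suclg1, Suclg2, Sucla2, Cs, Idh2, Idh3a, Ogdh, Fh1 and Mdh2, measured in skin papillomas of Atf2 knockout and Atf2 wild-type mice on Illumina bead arrays. They are 9 of 17658 genes named on the array, and every probe annotated with one of these symbols was taken, 14 of the 46116 probes. The genes were chosen by pathway and by the difference in intensity between the knockout and wild-type pools, that of Suclg1 above all, so the members' differences are given as a description and without p-values. ATF2 protein is a leucine zipper transcription factor related to CREB. The knockout group was 1 pool of RNA from papillomas of 3 Atf2 knockout mice, hybridised to 3 arrays, and the wild-type group was 1 pool from papillomas of 2 Atf2 wild-type mice, likewise on 3 arrays. Both groups had a mixed FVB and C57bl6 background and papillomas at about 9 months of age, and both had received 1 application of DMBA, a mutagen, and then TPA, a tumour promoter, for 30 weeks. All arrays of 1 pool share an extract and are technical replicates, so each SD and SE measures technical spread, the difference between the genotypes has no replicate check, and genotype, the animals pooled and position on the chip cannot be told apart.

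The citric acid cycle runs in the mitochondrial matrix, where it oxidises acetyl groups to carbon dioxide and passes the electrons to the respiratory chain. Citrate synthase (Cs) opens it, isocitrate dehydrogenases (Idh3a, Idh2) and 2-oxoglutarate dehydrogenase (Ogdh) carry out oxidative decarboxylations, succinate-CoA ligase makes a nucleoside triphosphate directly, and fumarase (Fh1) and malate dehydrogenase (Mdh2) close the ring. Succinate-CoA ligase is a dimer of the alpha subunit, encoded by Suclg1, with one of a pair of beta subunits: that of Suclg2 gives the GTP-forming enzyme and that of Sucla2 the ATP-forming enzyme.

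Median raw intensity was 109.9 to 135.5 on the knockout arrays and 135.8 to 148.2 on the wild-type arrays, and knockout array 3 was the dimmest. A probe was called above background where its raw intensity exceeded the most frequent intensity of the array by 3 SDs, a limit of 137.7 to 163.2 on the knockout arrays and 160.2 to 178.1 on the wild-type arrays. The targeted gene gave little signal. Atf2 probe 2260348 read 171, 133.2 and 103 on the knockout arrays and 184.5, 176.2 and 186.3 on the wild-type arrays, and its other 3 probes were at background on all 6 arrays, so they do not check the genotype. Of 9 keratinocyte genes, 8 were above background on all knockout arrays and 9 on all wild-type arrays. Fewer cells of a type and less RNA per cell cannot be told apart in such pools.

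In the knockout pool, 1 member gene stood far from the other members, on its brighter probe. The brighter Suclg1 probe was 8.13-fold lower than in the wild-type pool, while the brightest probes of the other 8 genes lay between -0.41 (Mdh2) and 0.64 (Ogdh) on the log2 scale. Of the 14 member probes, 12 were bright enough to be tested, that is, above the median of all probes in mean normalized log2 intensity, and 1 of them, in Suclg1, was past the threshold, an adjusted p (limma) under 0.05 with a difference of at least 2-fold, in the lower direction. Over all 23058 tested probes, 4.88% were past it, 3.9% in the lower direction and 0.984% in the higher one, and nothing is read from the members' count, since this difference chose them. Signed values are knockout minus wild type on the log2 scale, after background correction and quantile normalization. The plot of raw intensity by array shows all 14 probes.

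**Figure D1:**
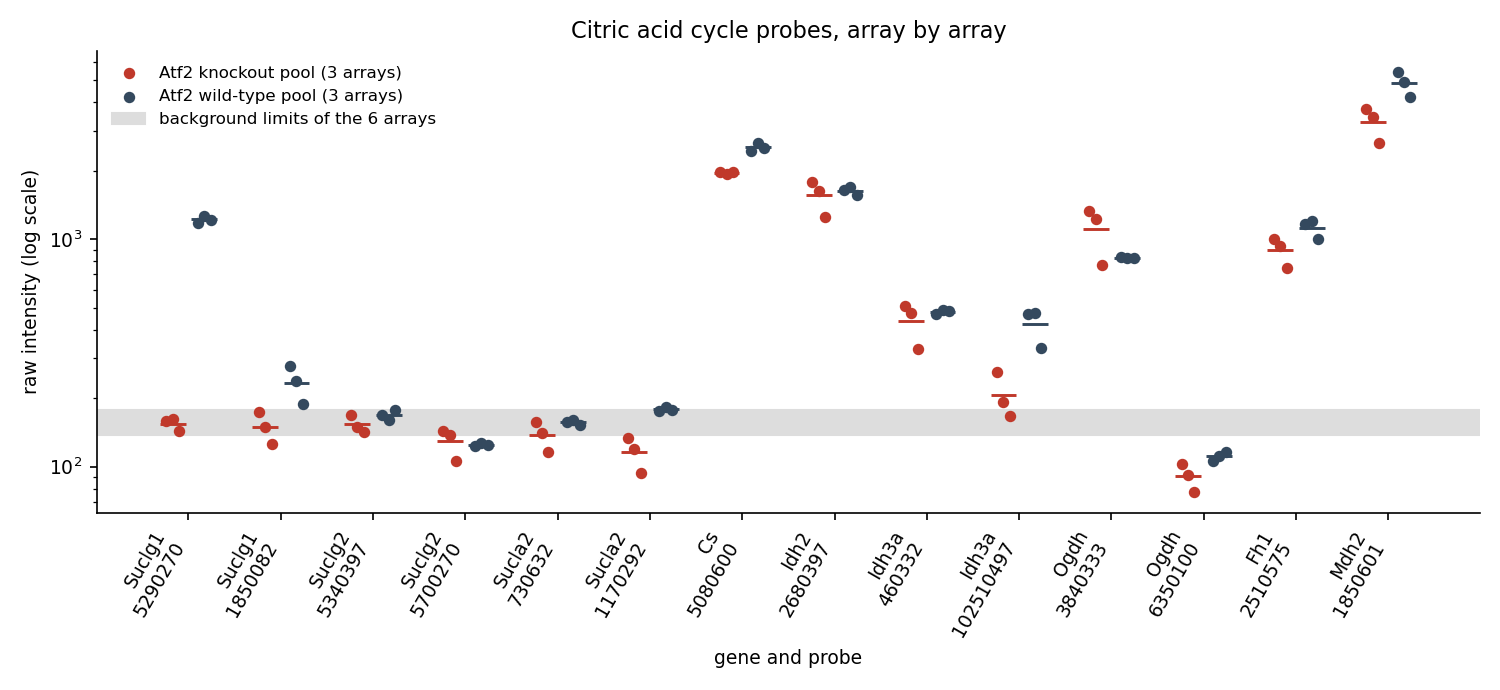
Raw intensity on a log scale for each of the 14 member probes, with the 3 knockout arrays on the left and the 3 wild-type arrays on the right of each position; short lines are means and the grey band spans the background limits of the 6 arrays. The brighter Suclg1 probe lies near 155 on the knockout arrays and near 1220 on the wild-type arrays, and no other probe has so wide a gap.

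Suclg1 encodes the alpha subunit that every succinate-CoA ligase dimer needs. Its probe 5290270 read 159.6, 161.3 and 143.1 on the knockout arrays and 1179, 1263.3 and 1218.1 on the wild-type arrays. The knockout arrays lay at the background limit, and the groups were far apart. Means were 155 ± 10.1 in the knockout pool and 1220 ± 42.2 in the wild-type pool (SD, n = 3 arrays each), with a difference of -3.02 (SE 0.09). The probe was above background on 2 of 3 knockout arrays and on 3 of 3 wild-type arrays. With each array's most frequent intensity taken off, the signal was 43.8 ± 6.04 in the knockout pool and 1094 ± 45.1 in the wild-type pool (SD, n = 3). Because the knockout signal is so close to background, the size of the difference follows the background correction: it was -2.59 in the authors' normalized values and -4.34 with that intensity subtracted and a floor of 50. In rank it was the 24th lowest difference of the 23058 tested probes.

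The other Suclg1 probe, 1850082, was dim and differed far less. It read 173.9, 148.9 and 126 on the knockout arrays and 276.3, 236.9 and 187.8 on the wild-type arrays. The raw values did not overlap, but after normalization knockout array 1 (7.11) lay above wild-type array 3 (7.03), and the difference was -0.42 (SE 0.14). Over background its signal was 38.7 ± 12.6 in the knockout pool and 108 ± 48.7 in the wild-type pool (SD, n = 3). With so dim a wild-type signal, a fall as large as that of the brighter probe could not have been measured on it. Both probes carry the same transcript annotation, and where in the transcript each lies was not analysed here.

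The genes for the beta subunits were close to background in both pools. Suclg2 probe 5340397 read 168.9, 149.7 and 141.4 on the knockout arrays and 169, 160.6 and 177.4 on the wild-type arrays, with a difference of 0.14 (SE 0.08). Raw values overlapped, whereas the normalized ones were all higher in the knockout pool. The other Suclg2 probe, 5700270, was at background on every array and was not tested. Sucla2 probe 730632 read 156.5, 140.4 and 115.6 on the knockout arrays and 157.9, 161.2 and 152 on the wild-type arrays. It was above background on 1 array, in the wild-type pool, and the groups overlapped, so no fold is given. Sucla2 probe 1170292 read 133.9, 119.8 and 93.9 on the knockout arrays and 176.3, 183.8 and 178.1 on the wild-type arrays. The groups did not overlap, but the probe was above background on 0 knockout arrays and on 2 wild-type arrays, which bounds it at 1.00-fold or more lower and so fixes no difference. Its fitted value followed the background correction, from -0.82 with an offset of 16 to -0.06 with the most frequent intensity subtracted (-0.55 with the offset of 50 used here). With the wild-type arrays this close to background, a fall of the size seen in Suclg1 could not have been measured in either gene.

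**Figure D2:**
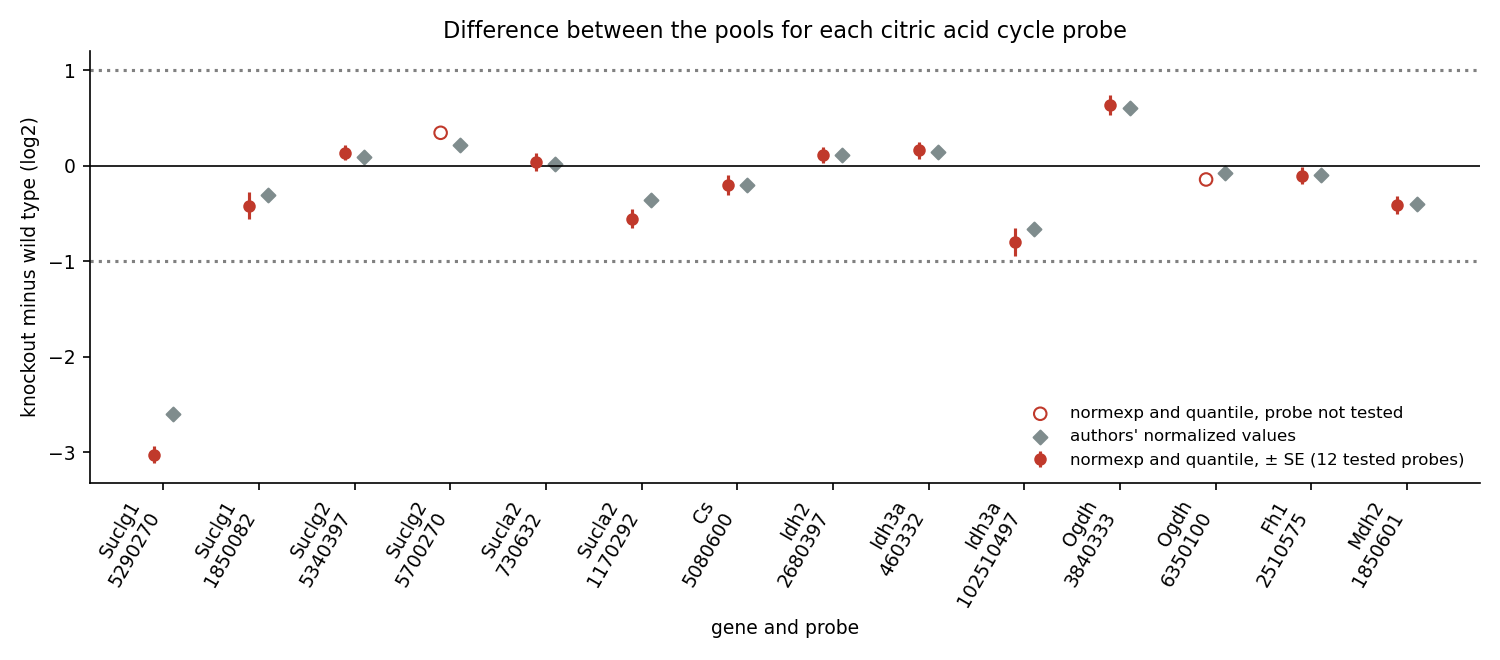
Knockout minus wild-type difference (log2) for each member probe; filled circles are tested probes with their SE, open circles the 2 probes that were not tested, grey diamonds the authors' normalized values, and dotted lines mark a 2-fold difference. The brighter Suclg1 probe lies at -3.02 and -2.59, and all others lie within the 2-fold lines; both Sucla2 probes were at background in the knockout pool.

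The genes at the start of the cycle had bright probes and small differences. Cs, which encodes the enzyme that condenses acetyl-CoA with oxaloacetate, read 1966, 1923.9 and 1975.1 on the knockout arrays and 2437.7, 2644.3 and 2506.7 on the wild-type arrays. The raw values were lower in the knockout pool, but after normalization knockout array 3 (11.24) lay just above the highest wild-type array (11.23). The difference was -0.20 (SE 0.11). Without knockout array 3 it was -0.33. Idh2, the NADP-dependent mitochondrial isocitrate dehydrogenase gene, read 1785.6, 1633.1 and 1249.6 on the knockout arrays and 1647.4, 1698 and 1557.9 on the wild-type arrays, with a difference of 0.11 (SE 0.08).

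Idh3a, which encodes the catalytic alpha subunit of the NAD-dependent isocitrate dehydrogenase, had a pair of probes that went apart. Probe 460332 read 507, 473.2 and 328.5 on the knockout arrays and 469.4, 487.4 and 483.1 on the wild-type arrays, with a difference of 0.16 (SE 0.09) and overlapping groups. Probe 102510497, annotated to a separate cDNA clone, read 260.2, 193.3 and 166.9 on the knockout arrays and 470.3, 472.7 and 331.1 on the wild-type arrays. Here the groups did not overlap, and the difference of -0.80 (SE 0.15) was the next lowest among the members after Suclg1. It went past 2-fold (-1.20) only when the most frequent intensity was subtracted from each array, among the 16 other settings and array sets tried.

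Ogdh was the member with the highest value in the knockout pool relative to wild type. It encodes the E1 component of the 2-oxoglutarate dehydrogenase complex, which makes succinyl-CoA, the substrate of succinate-CoA ligase. Its probe 3840333 read 1325.3, 1228.6 and 771.2 on the knockout arrays and 831.1, 825.2 and 829.5 on the wild-type arrays. Knockout array 3 was lowest in raw intensity, yet after normalization all knockout arrays (10.27, 10.25 and 9.90) lay above all wild-type arrays (9.50, 9.46 and 9.54). The difference was 0.64 (SE 0.11), under 2-fold. Ogdh probe 6350100 was at background on every array and was not tested.

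Neither gene of the last steps reached 2-fold. Fh1, the fumarase gene, read 1002.8, 933.8 and 746.2 on the knockout arrays and 1168.2, 1196 and 1003.3 on the wild-type arrays, and its normalized difference of -0.10 (SE 0.09) came with overlapping groups. Mdh2, the mitochondrial malate dehydrogenase gene and the brightest member, read 3727.9, 3433.2 and 2646.3 on the knockout arrays and 5439, 4891.6 and 4228.7 on the wild-type arrays. All knockout arrays lay below all wild-type arrays before and after normalization, and the difference was -0.41 (SE 0.10). In all, 7 of the 12 tested member probes had a negative difference, against 40.6% of all tested probes, and the normalized values of the pools did not overlap for 7, against 48.4% of all tested probes. The median of the 12 was -0.15, beside 0.05 over all tested probes; with 1 probe per gene it was 0.04 over the 9 genes, beside 0.08 over 12096 genes.

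Promoter sequences are shown because ATF2 protein is known to bind the cAMP response element, TGACGTCA. They are those of Suclg1 and Ogdh, the members at the lower and upper ends, and of Mdh2, the only searched member besides Ogdh with this element. The sequences shown thus do not stand for all members. They come from RefSeq on build GRCm38.p6, plus strand, at chr6:73248255-73248524 for Suclg1, chr11:6291347-6291616 for Ogdh and chr5:135778399-135778668 for Mdh2, each with 250 bases before the annotated start and 20 from it onward. Capitals mark TGACGTCA and the shorter TGACGT on either strand, which TGACGTCA contains.
Suclg1: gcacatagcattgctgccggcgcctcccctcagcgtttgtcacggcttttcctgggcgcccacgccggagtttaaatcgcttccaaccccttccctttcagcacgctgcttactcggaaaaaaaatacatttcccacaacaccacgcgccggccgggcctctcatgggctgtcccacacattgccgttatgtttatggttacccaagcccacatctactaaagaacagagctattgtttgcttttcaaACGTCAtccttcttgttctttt
Ogdh: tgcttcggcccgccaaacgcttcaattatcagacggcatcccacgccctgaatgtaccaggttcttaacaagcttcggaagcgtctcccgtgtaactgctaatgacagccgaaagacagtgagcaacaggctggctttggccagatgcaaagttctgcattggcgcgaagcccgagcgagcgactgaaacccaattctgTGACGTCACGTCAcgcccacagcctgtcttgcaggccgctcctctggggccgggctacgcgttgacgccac
Mdh2: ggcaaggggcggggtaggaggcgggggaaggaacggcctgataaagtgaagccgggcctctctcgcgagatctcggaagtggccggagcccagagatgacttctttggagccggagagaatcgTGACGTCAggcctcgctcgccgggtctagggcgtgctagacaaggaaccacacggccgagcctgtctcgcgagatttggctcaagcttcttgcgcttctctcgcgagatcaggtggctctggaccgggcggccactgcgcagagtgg

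Promoters of 8 of the 9 genes were found in the table (13 windows, 6 of them of Ogdh), all but Idh3a. TGACGTCA was present for 2 of these 8 genes, Ogdh and Mdh2, against 1.79% of all 32851 promoter windows and 2.03% of the genes. TGACGT on either strand was present for 4, with Suclg1 and Fh1 added, against 7.51% of windows and 8.37% of genes. The searched windows reached 250 bases before and 50 after the start. The pair with the full element lay on opposite sides of 0 in the knockout pool (Ogdh at 0.64, Mdh2 at -0.41), and Suclg1 had only the shorter match, which begins 2 bases before the annotated start. A match in letters is not a binding site, and no binding was measured.

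Other listed genes of the cycle that are not members, 7 of them tested, stayed within 2-fold apart from 1 fall. The only Sdha probe was at background and was not tested. Idh3g, which encodes the regulatory gamma subunit of the NAD-dependent isocitrate dehydrogenase, fell 4.54-fold: it read 175.6, 196.3 and 199.3 on the knockout arrays and 904, 896.5 and 980.8 on the wild-type arrays (difference -2.18, SE 0.15, limma adjusted p = 2.10e-07). It has 1 probe. Idh3b, the beta subunit gene of the same enzyme, was at 0.08 (SE 0.13, limma adjusted p = 0.682), and Idh3a is described above. At an unadjusted p under 0.05, with no size limit, 2 of the 7 genes were higher and 3 lower. The list's median was -0.02, beside 0.08 over all tested genes.

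Subunits of the 2-oxoglutarate dehydrogenase and succinate dehydrogenase complexes did not reach 2-fold. Dlst, the succinyltransferase that works beside Ogdh, was at 0.43 (SE 0.11, limma adjusted p = 0.00631) on its brightest probe, and its 3 other probes above background were at 0.67, 0.37 and 0.73. Ogdh and all 4 of these Dlst probes were thus higher in the knockout pool, each under 2-fold. Dld, the lipoamide dehydrogenase shared by several such complexes, was at -0.59 (SE 0.10, limma adjusted p = 0.000424) on its brightest probe and at -0.15 on another. For succinate dehydrogenase, which takes up the succinate that the ligase releases, Sdhb was at -0.02, Sdhc at 0.21 and Sdhd at -0.38.

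Genes that feed pyruvate into the cycle or control its entry did not change past the threshold. The list includes the Pdk genes, whose kinases inhibit pyruvate dehydrogenase, so its median gives no direction for entry. Of 13 listed genes 8 were tested, 0 passed (limma), and the differences ran from -0.51 to 0.30 with a median of 0.02. At an unadjusted p under 0.05, with no size limit, 1 was higher and 1 lower. Pdha1, the alpha subunit of pyruvate dehydrogenase and the brightest of them, was at 0.03 (SE 0.10).

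Of 17 genes that exchange cycle intermediates with the cytosol or with glutamate, 13 were tested and 1 fell. Mdh1, the cytosolic malate dehydrogenase gene, fell 3.79-fold on its brighter probe, which read 168.3, 173.1 and 150.5 on the knockout arrays and 617.3, 693 and 635.1 on the wild-type arrays (difference -1.92, SE 0.09, limma adjusted p = 1.46e-08). Its other probe, at 188 in the wild-type pool, was at -0.05. Me1, the cytosolic malic enzyme gene, was the highest of the list at 0.83 (SE 0.09, limma adjusted p = 1.75e-05), under 2-fold. At an unadjusted p under 0.05, with no size limit, 6 genes of this list were higher and 1 lower, with a median of 0.17. Of 13 genes that stand for mitochondrial content, 0 passed on the brightest probe (limma), with a median of 0.06. At an unadjusted p under 0.05, with no size limit, 3 were higher and 4 lower. Vdac1, the outer membrane channel gene and the brightest of them, was at 0.23 (SE 0.08). Over the 4 lists together, 2 of 41 tested genes passed, Idh3g and Mdh1, both lower, beside 2.48% of all tested genes in that direction and 1.12% in the other, and the median was 0.03.

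**Figure D3:**
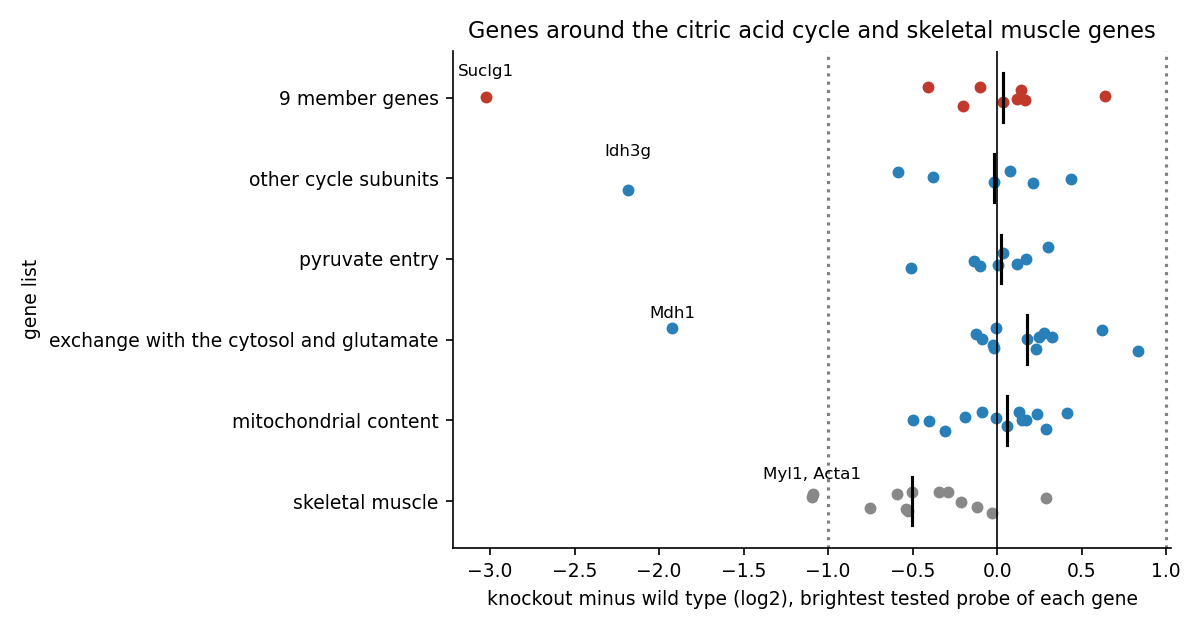
Knockout minus wild-type difference (log2) of each gene's brightest tested probe, by gene list; black bars are medians, dotted lines mark a 2-fold difference, and genes past the threshold are named. Most genes around the cycle lie within 2-fold, with Suclg1 at -3.02, Idh3g at -2.18 and Mdh1 at -1.92 apart from them.

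For several of these genes the difference seen depended on the probe. Among the members and the 4 lists, 12 genes had at least 2 tested probes above background on all wild-type arrays. In 5 of them, Suclg1, Mdh1, Idh1, Got2 and Hspd1, a probe was past the threshold in the lower direction, and in 0 of these 5 were all such probes past it. Over the whole array, 448 of 2147 such genes had a probe past it and 28 had all of them. In the higher direction the counts were 0 of the 12 and 45 of the 2147. The filter asked for signal in the wild-type pool only, so it favours falls over rises. For Idh1, the cytosolic isocitrate dehydrogenase gene, the brightest probe was at -0.02, while another read 355, 351.9 and 301.7 on the knockout arrays and 1143, 1177.5 and 1175.1 on the wild-type arrays (-1.60, limma adjusted p = 3.87e-08). For Got2, the mitochondrial aspartate aminotransferase gene, the brightest probe was at 0.62 and another, at background in the knockout pool, was lower by at least 2.60-fold (limma adjusted p = 1.85e-08). For Hspd1, the mitochondrial chaperonin gene, the brightest was at 0.17 and another, at background in the knockout pool, was lower by at least 3.75-fold (limma adjusted p = 1.39e-08). In Idh1, Got2 and Hspd1 the brightest probe was the one near or above 0, whereas in Suclg1 and Mdh1 the brightest was the one past the threshold. The other Suclg1 and Mdh1 probes were dim in the wild-type pool too. That of Suclg1 averaged 234 there, against background limits of 160.2 to 178.1. Such probes have little room to fall, so in these genes the smaller difference need not be a disagreement between probes.

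**Figure D4:**
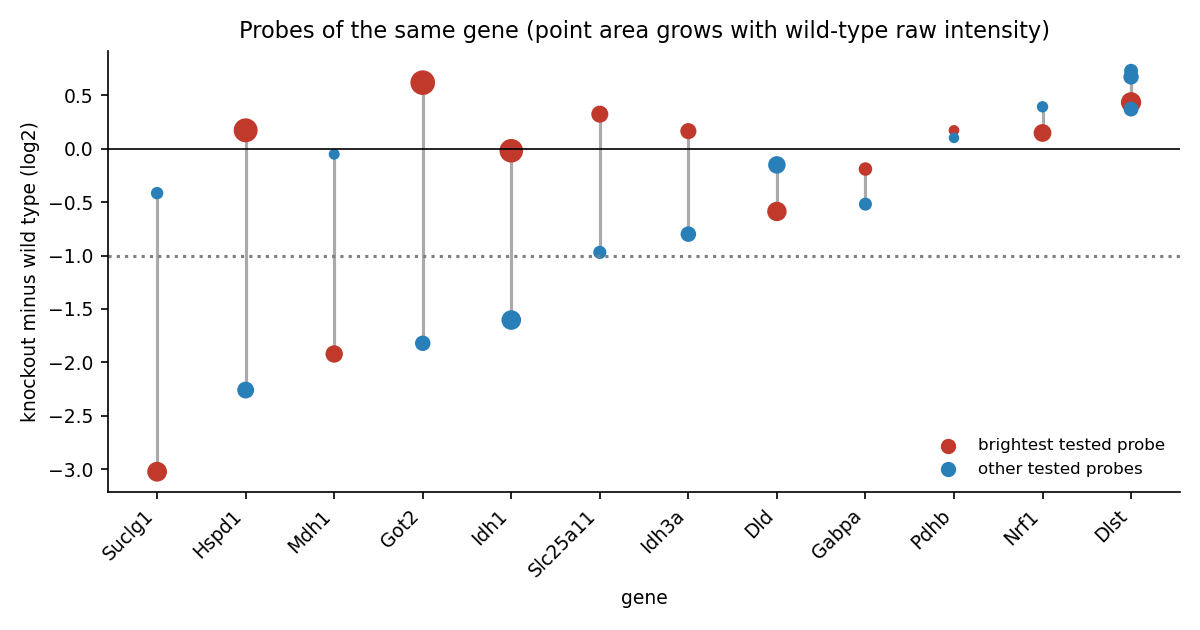
Knockout minus wild-type difference (log2) of each tested probe above background on all wild-type arrays, for the 12 genes with at least 2 such probes; red is the brightest probe of the gene, blue the others, point area grows with wild-type raw intensity, and the dotted line marks a 2-fold fall. Suclg1 spans -3.02 to -0.42, the low probes of Got2 and Hspd1 were at background in the knockout pool, and in none of the genes do all probes lie below the line.

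Several genes with other roles were lower in the knockout pool by about as much as the brighter Suclg1 probe. By Euclidean distance of normalized log2 values, centred on the wild-type mean, over the 6 arrays of these 2 pools, the 5 nearest genes were the tetraspanin gene Tspan3 (distance 0.32), Hnrnpk (0.33) and Hnrnpa2b1 (0.64), which encode RNA-binding proteins, the antiproliferative gene Btg1 (0.35) and Gnas (0.63), which encodes a G protein alpha subunit. The Gnas probe was above background on 0 knockout arrays, so its distance rests on values at background. Tspan3 read 168.5, 181.1 and 156 on the knockout arrays and 1363.4, 1189.8 and 1223 on the wild-type arrays, much as Suclg1 did. The distance mostly ranks genes by the size of the pool difference that chose Suclg1, and the 5 nearest genes lay between -3.15 and -2.70. No citric acid cycle gene was among them, and nothing is read from this. The lowest other listed cycle gene was Idh3g, at -2.18 on its only probe. With the tested probes split by brightness into 4 bins of equal size, the Suclg1 probe lay in bin 3, where 7.82% were past the threshold in the lower direction, against 0.399% in bin 1 (the dimmest), 2.29% in bin 2 and 5.08% in bin 4. Brightness here is the mean over all 6 arrays, so a large fall itself lowers a probe's bin. The Suclg1 probe averaged 10.09 on the wild-type arrays and 7.07 on the knockout arrays. Its bin and the share in bin 3 thus partly follow from the falls.

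**Figure D5:**
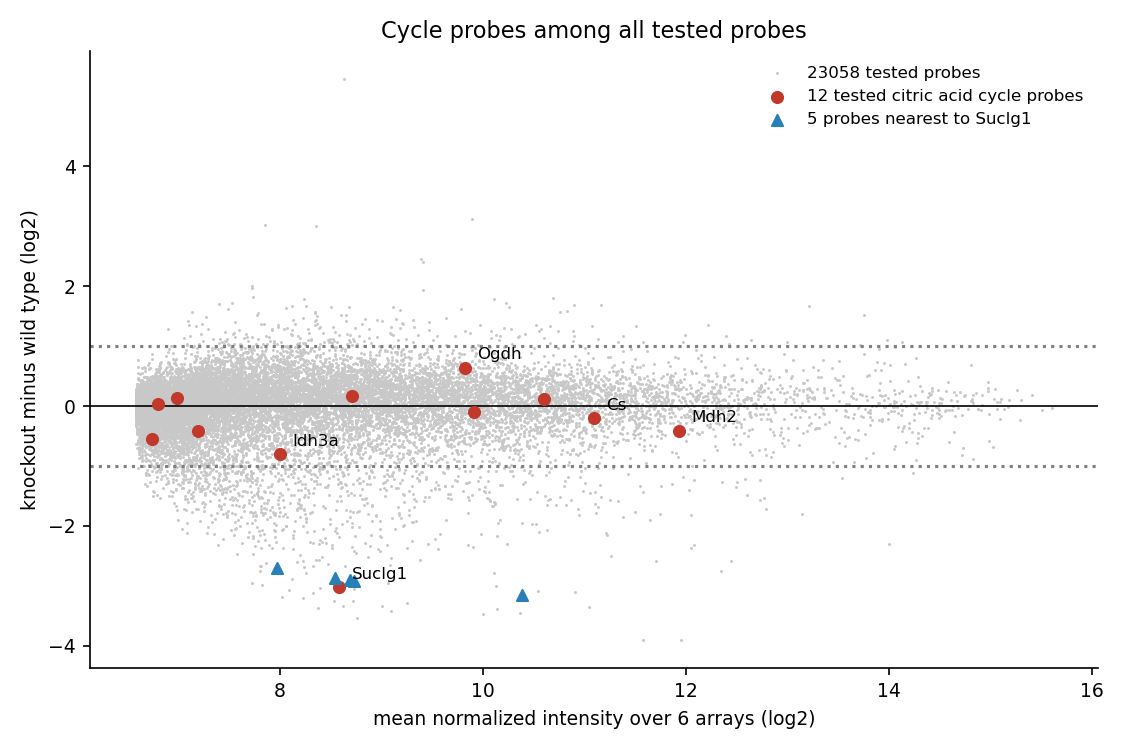
Knockout minus wild-type difference against mean normalized intensity over the 6 arrays (both log2) for 23058 tested probes in grey, the 12 tested member probes in red and the 5 genes nearest to Suclg1 as blue triangles; dotted lines mark 2-fold. Suclg1 lies with a group of low probes of middle mean intensity, a mean that includes their low knockout values. The other members lie within the 2-fold lines.

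Markers of other cells moved between the pools beside these values. Skeletal muscle, a tissue rich in cycle enzymes, was represented by 13 tested genes, of which 12 had a negative difference, with a median of -0.51. Their summed raw intensity was 2431 to 3658 on the knockout arrays and 5030 to 5257 on the wild-type arrays. This sum and those below have no background correction or normalization. The knockout arrays had lower raw medians, so array brightness enters the sums. Acta1, skeletal alpha-actin, fell by 1.09 (SE 0.12, limma adjusted p = 1.65e-05), and Myl1, at background in the knockout pool, was lower by at least 1.49-fold (limma adjusted p = 2.20e-06). For 8 fibroblast genes the sum was 3998 to 5465 on the knockout arrays and 9021 to 10093 on the wild-type arrays, with 3 falls. Of these genes 6 were negative and 2 positive, with a median of -0.56. For 9 keratinocyte genes the sum was 97321 to 117302 on the knockout arrays and 116605 to 120791 on the wild-type arrays, with 1 rise. Of these genes 6 were negative and 3 positive, with a median of -0.07, and 1 had a probe past the threshold in the lower direction. For 5 fat and sebaceous genes the sum was 1958 to 2806 on the knockout arrays and 3862 to 3999 on the wild-type arrays, with 1 fall. Gene by gene these were mixed, 3 with a positive and 2 with a negative difference and a median of 0.17, so the sum does not stand for the set. Of 5 macrophage and neutrophil genes 1 rose and 1 fell, of 5 endothelial genes none passed (limma; 0 higher and 1 lower at an unadjusted p under 0.05), and both tested erythrocyte genes rose. The part of these cells in the values of Suclg1, Mdh2, Idh3g and Mdh1 was not tested.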

How the data were processed

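Papilloma RNA pools of 3 Atf2 knockout and 2 wild-type mice were each measured on 3 arrays, grouped by their titles. Per the file headers, the deposited files hold raw intensity per probe, and the submitters' processing notes name BeadStudio 3. A table of log2 values normalized by the authors has a common distribution over the arrays and keeps each array's rank order; how it was normalized is not stated in the labels or headers. Raw intensities were corrected with limma's normexp (offset 50, which shrinks differences of dim probes), converted to log2 and quantile-normalized. The 23058 of 46116 probes above the median mean intensity were tested with limma 3.58.1 (R 4.3.3; lmFit, eBayes with trend) with Benjamini-Hochberg adjustment over all of them, and the procedure was tested on simulated data. The threshold was an adjusted p under 0.05 and at least 2-fold. A probe at or under the background limit on all arrays of a pool ("at background") is given as a bound there, against the higher of its own value and the lowest value above background. Precision on the genotype difference is limited by having 1 pool per genotype, and the limma p-values measure technical spread only.

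Gene names come from GEO's annotation of the platform, which can be old: 29534 probes had 1 symbol, 11 several and 16571 none; 29476 were looked up by Entrez identifier in RefSeq GRCm38.p6, and 0 changed. A gene is represented by its brightest tested probe. Named were every member probe and, per list, the 3 largest called differences in each direction or else the brightest gene, genes that complete a small count, and the 5 genes nearest to Suclg1. Dld, Dlst, Me1, the succinate dehydrogenase genes, Idh3b and the genes with discordant probes were named after their values were seen. Members and lists were chosen with earlier results of these data known. The replicate numbers do not pair the arrays: same-numbered deviations correlated at 0.11, -0.13 and 0.04 across probes. Alternatives covered normalization, background correction, probe filter, variance model, replicate block and leaving out each array. Some listed items are not reported here.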

Additional observations from a re-analysis of the deposited data

How the results depend on the processing

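The differences of Suclg1 (brighter probe), Idh3g and Mdh1 kept their direction and stayed past 2-fold under every alternative in which the probe was tested, Suclg1 between -4.34 and -2.59, Idh3g between -2.96 and -1.88, and Mdh1 between -2.91 and -1.59. Of the 12 tested member probes, 1 was past the threshold under all alternatives but a pair: 2 passed with each array's most frequent intensity subtracted, where Idh3a was added and 10 member probes were tested, and 0 among probes above background on all 6 arrays, a filter that leaves both Suclg1 probes out and 7 member probes in, 4 of them negative. Over the whole array, 1126 probes passed, against 748 with the authors' values, 2021 with the most frequent intensity subtracted and a floor of 50, and 656 among probes above background on all arrays. Of those called, 79.8% were lower, 64.0% with the intensity subtracted and 71.8% with the last filter. The fit with a replicate block called 1128 probes and changed no call named here. Leaving out each array in turn gave 1093 to 1228 probes over the whole array, 1 member probe, 7 to 8 negative member probes and 2 genes of the other lists. Pdha1, near 0, changed sign without knockout array 3 (-0.063) and without wild-type array 1 (-0.022), and ran from -0.063 to 0.092 over the arrays left out; Sucla2 probe 730632, near 0 and at background in the knockout pool, did so without knockout array 1 (-0.0034) and without wild-type array 3 (-0.030). The cause was not tested. Signal over background limits Suclg2 and Sucla2 in both pools and Suclg1 in the knockout pool.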
